A study of Rattus norvegicus with 2 samples.

Results

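The 10 genes Gzma, Gzmb, Gzmk, Prf1, Nkg7, Klrb1, Klrd1, Klrk1, Ncr1 and Eomes were followed here as genes of cytotoxic granules and natural killer (NK) receptors. They were chosen by name, and in part from the array values themselves, since the intensities of Gzma, Nkg7 and Prf1 in the cocaine sample were known to be well under those in the control sample. The differences given below are therefore a description of these genes and no test of them. A named probe set was found for 9 of the 10 genes, out of 15037 named genes, whereas Eomes, a transcription factor of NK and memory T cells, had none and was not analysed here. Each measured gene had 1 probe set. Male Sprague Dawley (SD) rats, 8 weeks old, were used. The cocaine group had been given cocaine at 20 mg/kg daily, by tail vein injection, over a course of 14 days. The control sample is labelled as having had no stimulation, while the methods of the study describe saline on the same schedule. RNA labelled left ventricle was hybridized to 1 Clariom S array per condition, and whether an array held the RNA of 1 rat or of several is not stated in the sources used here. Hence no value carries an SD or a p-value, each difference compares these 2 arrays, and the spread among rats of one condition was not measured.

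Cytotoxic lymphocytes, that is NK cells and cytotoxic T cells, kill infected or abnormal cells by releasing granules onto them. Perforin, the product of Prf1, opens the membrane of the target, and granzymes, which are serine proteases, enter and cleave proteins within. NK cells decide whether to release their granules by adding up signals from activating and inhibitory receptors, many of them C-type lectin-like proteins encoded side by side in the NK gene complex. Blood NK cells lodge in the capillaries of the lung in large numbers, and few are found in healthy heart muscle.

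On both arrays the genes of lung were bright and many of those of heart muscle were dim, whatever the label. All 11 measured alveolar epithelium markers lay above the background limit in both samples, with summed intensities of 2847996 in the cocaine sample and 2814686 in the control sample. Of 15 cardiomyocyte markers, 8 lay above it on both arrays. In the cocaine sample 12 were higher and 3 lower, and 7 were at least 2-fold higher, beside 0.698% of all named genes. The median log2 fold change was 0.77, or 0.56 with values raised to the higher background limit. Among the 7, Casq2, Nppa and Csrp3 had control values under the limit and fell short of 2-fold with values so raised. Tnnt2, the cardiac troponin T, had the largest rise of the list, 456.9 against 82.8, while Myl2 had 6344 against 7778. The sums of the cardiomyocyte list were 43056 and 29149, and without Atp2a2, its brightest gene, 14386 and 10806. Most heart muscle markers were thus higher in the cocaine sample, whereas most of the genes described below were lower in it. The part of heart muscle in those differences was not tested. The background limit is the intensity under which 95% of 1155 genes named as olfactory or vomeronasal receptors lay, 64.1 in the cocaine sample and 71.5 in the control sample. Intensities are in arbitrary units on a linear scale, and the log2 fold change is the log2 cocaine value minus the log2 control value. Binding varies from probe set to probe set, so brightness compared between genes, as in these marker lists, is no more than a rough guide. In RNA from whole tissue, fewer cells of a type and less RNA in each of them cannot be told apart.

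All 5 measured genes of the cytotoxic granule were lower in the cocaine sample than in the control sample, beside 47.3% of all named genes. At least 2-fold lower were 3 of them, Gzma, Nkg7 and Prf1, which were picked for this difference, beside 0.599% of all named genes. Gzma encodes granzyme A, a protease that cuts after basic residues and is made by NK cells and by some T cells. It had an intensity of 1995 in the cocaine sample and 5764 in the control sample, a 2.89-fold difference and a log2 fold change of -1.53. Gzma thus stood far above the background limit in both samples, and its level in the cocaine sample was 34.6% of that in the control sample. Nkg7, a membrane protein of the granule that takes part in its release, had 547.6 and 1494, a 2.73-fold difference. Prf1 had 4836 in the cocaine sample and 10031 in the control sample, a 2.07-fold difference and a log2 fold change of -1.05, just past the 2-fold threshold. Gzmb encodes granzyme B, which cuts after aspartate and sets off apoptosis through caspases. It had 162.4 and 306.3, a 1.89-fold difference and a log2 fold change of -0.92, just short of the threshold. The cocaine value of Gzmb was 2.53 times the background limit, and it lay under the brightest of the 23 GC-matched background probe sets of that array, which stood at 276.6. Gzmk, the granzyme of many memory T cells, had 2020 in the cocaine sample and 2851 in the control sample, a 1.41-fold difference. It was the granule gene with the smallest difference among the 5, although Gzmk and Gzma lie next to each other on chromosome 2.

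Of the 4 measured receptor genes, 3 were lower in the cocaine sample, beside 47.3% of all named genes, and none differed 2-fold. Klrd1 encodes CD94, which pairs with the NKG2 proteins to read MHC class I molecules. It had an intensity of 843.4 in the cocaine sample and 1428 in the control sample, a 1.69-fold difference and a log2 fold change of -0.76. Klrk1 encodes NKG2D, an activating receptor for stress-induced ligands. It had 1336 and 1758, a 1.32-fold difference and a log2 fold change of -0.40. Klrb1, of the NKR-P1 family, had 35.9 in the cocaine sample and 63.3 in the control sample. Both values of Klrb1 lay under the background limit, so its log2 fold change of -0.82 rests on values that cannot be told from background, and it was 0 with values raised to the higher limit of the arrays. Ncr1 encodes NKp46, an activating receptor largely restricted to NK cells and related innate lymphoid cells. It stood at 428.0 in the cocaine sample and 407.6 in the control sample, a ratio of 1.05. Ncr1 was the single measured gene of the 9 that was not lower in the cocaine sample, although with quantile normalization its log2 fold change of 0.07 became -0.0028. Its values lay above the background limit, at 6.67 and 5.70 times that limit.

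**Figure D1:**
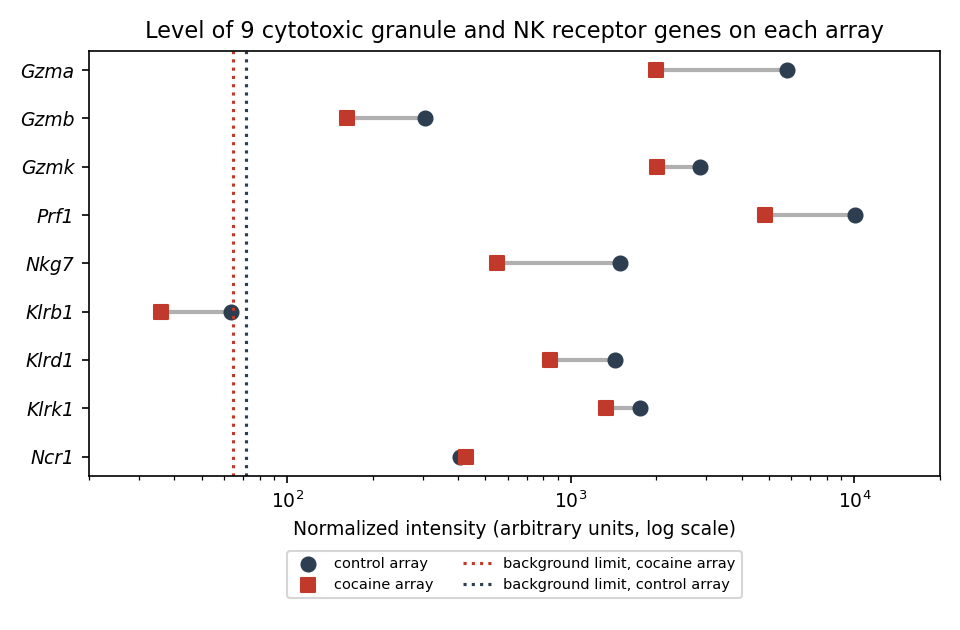
Normalized intensity (log axis) of the 9 measured genes in the control sample (circles) and in the cocaine sample (squares), with the background limit of each array as a dotted line; no error bars are drawn because there was 1 array per condition. The squares of Gzma, Nkg7 and Prf1 lie furthest to the left of their circles, those of Ncr1 coincide, and Klrb1 lies under the limits.

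In all, 8 of the 9 measured genes were lower in the cocaine sample, as were 47.3% of all named genes. At least 1.5-fold lower were 6 of the 9, namely Gzma, Nkg7, Prf1, Gzmb, Klrb1 and Klrd1, as were 4.95% of all named genes. At least 2-fold lower were 3 of the 9, as were 0.599% of all named genes. Among the 10035 genes with a mean level at or above the mean background limit, 0.339% were at least 2-fold lower, and these included 3 of the 8 members above that level. None of the 9 was at least 2-fold higher, as 0.698% of all named genes were. Since the genes were in part chosen by this same difference, nothing is read from these counts. The median log2 fold change of the 9 genes was -0.82, that of the 5 granule genes was -1.05 and that of the 4 receptor genes was -0.58, beside 0.02 over all named genes.
By the size of the fall, Gzma held rank 10 of 15037 named genes, Nkg7 rank 14, Prf1 rank 69 and Gzmb rank 128, whereas Klrd1 held rank 299, Gzmk rank 1116 and Klrk1 rank 1771. Each gene was also set among genes of like level, in 1 of 10 equal classes of mean level. In those classes of 1503 or 1504 genes, 2 genes, itself included, had a log2 fold change as low as that of Gzma, 2 as low as that of Nkg7, 3 as low as that of Prf1 and 14 as low as that of Gzmb. For Klrk1 there were 93 such genes and for Ncr1 800. Of the genes with a mean level at or above the mean background limit, the central 95% had log2 fold changes from -0.62 to 0.71. Gzma, Nkg7, Prf1, Gzmb and Klrd1 lay under that range, and Gzmk, Klrk1 and Ncr1 within it. The range describes how far genes differed between these 2 arrays and is not an error between animals. Gzma, Nkg7 and Prf1 were picked with their fall known. Nothing is therefore read from their ranks, from the counts in their classes or from their place under the range.

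**Figure D2:**
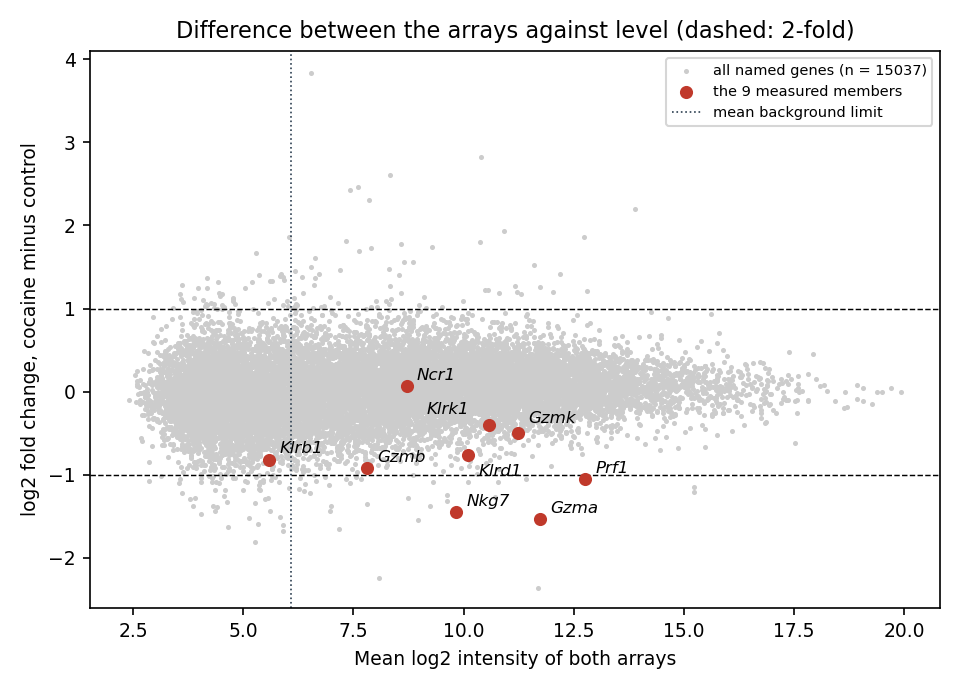
The log2 fold change (cocaine minus control, y axis) of 15037 named genes (grey) against their mean log2 intensity over both arrays (x axis), with the 9 measured genes in red, 2-fold differences as dashed lines and the mean background limit as a dotted line. Gzma, Nkg7 and Prf1 lie under the lower dashed line, and Ncr1 lies within the grey cloud at 0.07.

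Other cytotoxic effectors did not share one direction. Of 13 measured genes of the list, 7 were lower and 6 higher in the cocaine sample, 0 of them 2-fold, and the median log2 fold change was -0.10. Gzmm, another granzyme of NK cells, had 173.8 in the cocaine sample against 317.6 in the control sample, a log2 fold change of -0.87. Faslg, the death ligand that kills through Fas, had 137.4 against 251.0, also -0.87. Cst7, which encodes the protease inhibitor cystatin F, had 446.9 against 636.6, or -0.51. Ctsw, a cathepsin of cytotoxic cells, had 218.6 against 205.3, and Gzmc, Gzmn and Ifng, the interferon of activated NK and T cells, lay under the background limit in both samples. Srgn, the proteoglycan that packs granzymes and is made by many other blood cells too, had 66678 and 65525. Of the 10 measured genes of the machinery that carries granules to the membrane and fuses them with it, 4 were lower and 6 higher, around a median of 0.02 and a range from -0.31 to 0.36. Unc13d, which primes granules for fusion, had 1649 in the cocaine sample and 1625 in the control sample, and Rab27a, which docks them, 1909 and 1860. The members furthest from 0 were the fusion proteins Stx11, with a log2 fold change of 0.36, Snap23 with -0.31 and Vamp7 with 0.21, and Stxbp2, which binds Stx11, with -0.24. These genes serve secretion in many kinds of cells.

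Among the other NK receptors, 11 of 15 measured genes were lower in the cocaine sample and 4 higher, 0 of them 2-fold, and the median log2 fold change was -0.39. With values raised to the higher background limit that median was 0, since 5 of the 15 lay under the limit on both arrays. Klrc3, an NKG2 partner of CD94, had 226.5 against 417.9, a log2 fold change of -0.88. Klrc2, another partner of CD94, had -0.57, whereas the inhibitory partner Klrc1 had -0.13, at 693.7 against 760.6. Klrb1c, the NKR-P1 neighbour of Klrb1, had 1231 against 1831, or -0.57. Cd96, a receptor for nectin-like ligands, and Klri2, a lectin-like receptor, had -0.58 each. Higher in the cocaine sample were Klrg1, an inhibitory receptor of mature NK and T cells, at 91.1 against 65.0, the control value under the limit, Cd226, an activating receptor, at 118.7 against 97.3, Klrh1, under the limit on both arrays, and Fcgr3a, the Fc receptor CD16, at 441.8 against 398.5, which macrophages make as well. The Ly49 receptors, a lectin-like family that reads MHC class I in rodents, went both ways. Of 7 measured, 3 were lower and 4 higher, with Klra17 at 1517 in the cocaine sample against 1043 in the control sample and Klra22 at 65.2 against 108.9. Klra2 had a log2 fold change of 0.27, and Ly49si3, with its control value under the limit, had 0.39. Genes of these families are alike in sequence, and whether a probe set also binds the RNA of a relative was not tested.
Most of these receptors lie in the NK gene complex on chromosome 4. From Klrb1c to Klra2, in the gene order of the GRCr8 assembly, 31 genes were measured. In the cocaine sample 24 of them were lower, 0 of them 2-fold, beside 47.3% of all named genes. Of the 11 Klr genes outside the Ly49 family, 10 were lower and the median log2 fold change was -0.57. The 13 genes in between that belong to neither family, among them Clec7a and Gabarapl1, had a median of -0.08 and ranged from -0.39 to 0.26. Of these 13, 11 were lower too. The Klr genes were all counted above already, Klrb1, Klrd1 and Klrk1 among the 9 measured genes and the others among the other NK receptors. Their count here is therefore no separate result. Klrb1, Klre1 and Klrh1 did not reach the limit in either sample.

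**Figure D3:**
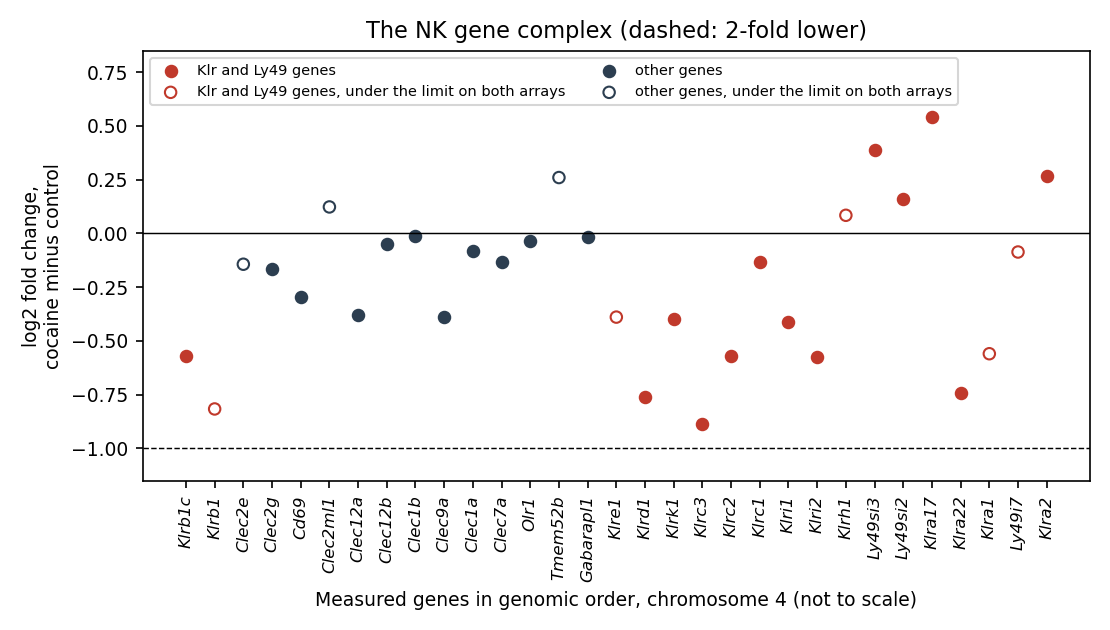
The log2 fold change (cocaine minus control, y axis) of 31 measured genes of the NK gene complex in their order along chromosome 4 (x axis, not to scale), with Klr and Ly49 genes in red, other genes in dark blue and genes under the background limit in both samples as open symbols. From Klre1 to Klri2 every gene is lower in the cocaine sample, whereas the Ly49 genes at the right lie on both sides of 0.

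Receptors of NK cells signal through small adaptors and kinases, and the survival of NK cells depends on interleukin 15, which acts through the receptor chains Il2rb and Il2rg. Il2rb had an intensity of 752.6 in the cocaine sample and 1597 in the control sample, a 2.12-fold difference and a log2 fold change of -1.09. Il2rg, the chain shared by many interleukin receptors, had 4321 and 6034, a log2 fold change of -0.48, and Il15 itself had 2165 and 2136. Of 12 measured cytokines and receptor chains, 10 were lower and 2 higher, around a median of -0.24, and Il2rb was the single one at least 2-fold lower. Il12rb2, a chain of the receptor for interleukin 12, had -0.78, and Il12a, a subunit of that cytokine, had -0.72 with its cocaine value under the limit.
Hcst, the adaptor DAP10 that carries the signal of NKG2D, had 149.7 against 243.5, a log2 fold change of -0.70. Tyrobp, the adaptor DAP12 of Ly49 and CD94 receptors and of macrophage receptors, had 5033 against 4042, or 0.32. Fcer1g and Cd247, through which NKp46 signals, had -0.24 and 0.09. Of the 14 measured genes of receptor signalling, 10 were lower, beside 47.3% of all named genes, and 4 were higher. Their median was -0.20, and 0 were at least 2-fold different. Zap70, a kinase, and Lat, a scaffold, both of T and NK cell signalling, had -0.94 and -0.93, but their cocaine values of 53.0 and 58.7 lay under the background limit. Syk, a kinase also of B cells and macrophages, had 698.0 against 1226, or -0.81.
Of 14 measured transcription factors of NK and cytotoxic T cells, 9 were lower, beside 47.3% of all named genes, and 5 were higher, around a median of -0.10. Tbx21, the T-box factor T-bet that drives granzyme and perforin genes, had 111.5 in the cocaine sample and 118.1 in the control sample, a log2 fold change of -0.08. Runx3, a Runt factor of cytotoxic T cells and NK cells, had 224.4 and 354.9, or -0.66, and Prdm1, the factor Blimp-1, had 0.46. Ikzf3, the lymphocyte factor Aiolos, had -0.51. Zbtb16, the factor PLZF of innate-like lymphocytes, which glucocorticoids also induce, was the single one at least 2-fold different, at 1450 against 7467. Of all named genes, 0.599% were at least 2-fold lower.
Of 15 measured genes of NK and T cell traffic, 8 were lower and 7 higher, around a median of -0.19 and 0 at least 2-fold different. Ccl5, a chemokine stored by cytotoxic lymphocytes, had 4395 against 6882, or -0.65, and Ccl3 had -0.75. S1pr5, through which mature NK cells leave the marrow, had 243.5 against 346.1, or -0.51. Cxcr4, the receptor for the chemokine CXCL12, was higher in the cocaine sample, at 1330 against 727.6, and Cxcl9, a chemokine induced by interferon, had 114.1 against 75.2. Of 9 measured ligands of NK receptors, 6 were lower and 3 higher, within -0.43 and 0.28. The MHC class I genes RT1-A1 and RT1-A2 had -0.43 and -0.24, B2m, their light chain, had -0.25, and Slamf6, a receptor that binds its own kind, had 0.28.

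**Figure D4:**
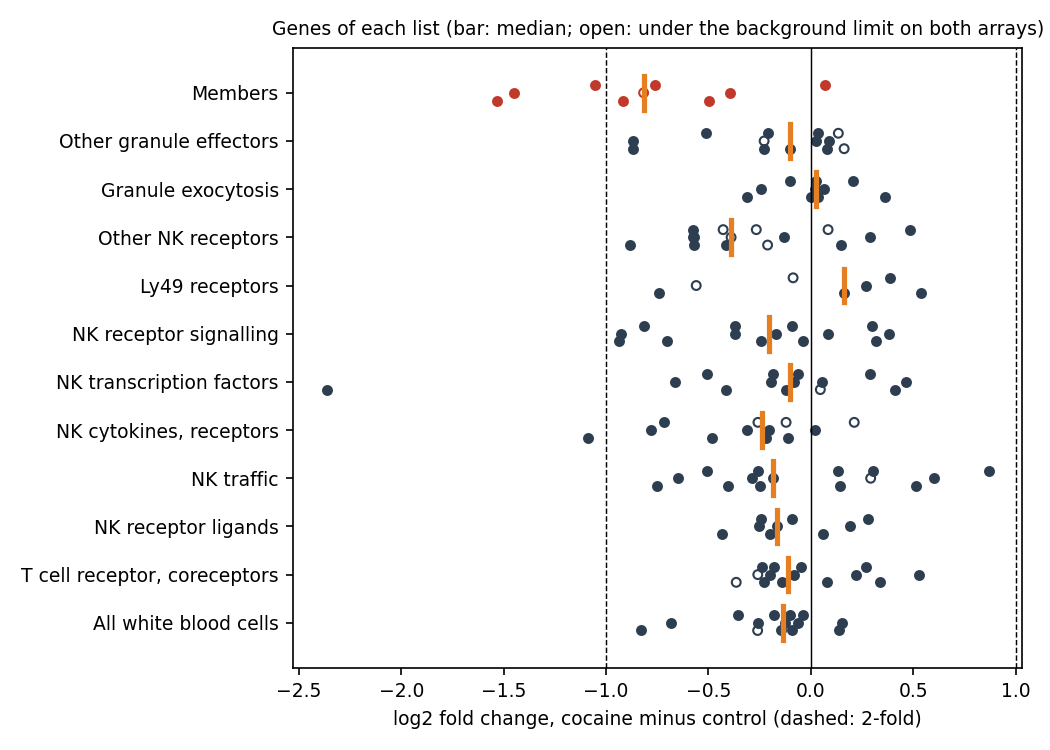
The log2 fold change (cocaine minus control, x axis) of each measured gene in 12 gene lists, with the median of each list as an orange bar, 2-fold differences as dashed lines and genes under the background limit in both samples as open symbols. The median of the 9 members, which were in part chosen for this difference, lies at -0.82. That of the other NK receptors lies at -0.39, and is 0 with values raised to the higher background limit, which are not drawn. Those of the T cell and white blood cell lists lie at -0.11 and -0.14, and those of the exocytosis and Ly49 lists at 0.02 and 0.16.

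Genes of other white blood cells were set beside the granule and receptor genes. The counts of lower genes in these lists stand beside 47.3% of all named genes. Of 14 measured genes of the T cell receptor complex and coreceptors, 9 were lower and 5 higher in the cocaine sample, with a median log2 fold change of -0.11 and a range from -0.36 to 0.53. The costimulatory receptor Cd28 had 0.53, Cd5, which dampens receptor signals, 0.34 and Cd4, the coreceptor of helper T cells, 0.27. Cd8a, a coreceptor of cytotoxic T cells, had 572.6 in the cocaine sample and 676.2 in the control sample, and Cd8b 163.5 and 169.0. Cd3e, a chain of the T cell receptor complex that NK cells lack at the surface, had 169.0 and 198.0. The summed intensities of this list were 5450 in the cocaine sample and 5200 in the control sample. Without Cd4, its brightest gene, they were 3301 and 3417, so the direction of the sum rests on Cd4. Of 14 genes of all white blood cells, 12 were lower, with a median of -0.14, and Ptprc, the common leukocyte antigen CD45, had 26464 and 28881. The largest differences among the genes of that list above the background limit were those of Cd37, a tetraspanin, with -0.83, Rac2, a small GTPase, with -0.68, Evi2b with -0.36 and Laptm5, a lysosomal protein, with -0.26. Relative to that median, the log2 fold change was -1.40 for Gzma, -1.31 for Nkg7, -0.92 for Prf1, short of 2-fold, and 0.21 for Ncr1. Neutrophil markers went the other way, with 9 of 11 higher, 5 of them at least 2-fold, and a median of 0.67. Their sums were 16481 and 5219, and without Lcn2, the brightest of them, 3442 and 1630. With values raised to the higher background limit, their median was 0.13. Of 11 macrophage markers 9 were lower, with a median of -0.33, and without Lyz2, which had 740607 in both and makes up most of the list sum, the sums were 15792 and 20714. Of 6 B cell markers 5 were lower, their median was -0.40 and their sums were 1925 and 2737. The 10 measured mast cell and basophil markers had a median of 0.04. The part of these cell types in the differences of the granule and receptor genes was not tested.

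By likeness to Gzma, measured as the distance between log2 levels over the 2 arrays, the nearest 5 genes outside the lists were Spon2, at a distance of 0.55 with 1897 in the cocaine sample and 3937 in the control sample, followed by Ifi30, Irf3, Ltbp1 and Scpep1, at distances from 0.59 to 0.73. Such likeness means no more than similar intensities on both arrays, which depend on probe binding too, and a gene matched in this way must also be lower in the cocaine sample. Measured genes beside the granule genes in the genome are given next. Gpx8 and Esm1, which flank the pair of Gzma and Gzmk among the measured genes of chromosome 2, had log2 fold changes of 0.40 and 0.53. Sgpl1 and Pald1, on either side of Prf1 on chromosome 20, had 0.26 and 0.09. The genes next to Gzmb on chromosome 15, Gzmc and Atp12a, and those next to Nkg7 on chromosome 1, Lim2 and Cldnd2, lay under the background limit in both samples. One gene further out, Gzmf had -0.23, at 64.7 and 75.9, close to that limit, and Siglec5 and Etfb had 0.13 and 0.26.

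The stretches around the start sites of these genes, where their transcription is controlled, are given for the 3 genes that were at least 2-fold lower and for Gzmk, the neighbour of Gzma that differed less. RefSeq start site windows of 250 bases before to 50 after the start (build GRCr8) were found for 8 of the 10 genes, all but Klrd1 and Ncr1. Each was searched on both strands for the T-box site AGGTGTGA and its core GGTGTG, bound by factors such as T-bet and Eomes, and for the RUNX site TGTGGT, bound by factors such as Runx3. The T-box core lies within the T-box site. In the lines below, capitals mark the matches, each read 5′ to 3′ on the strand of the gene. The windows are chr2:46485647-46485946 on the minus strand for Gzma, chr1:102981247-102981546 on the plus strand for Nkg7, chr20:29788790-29789089 on the plus strand for Prf1 and chr2:46581966-46582265 on the minus strand for Gzmk.
Gzma: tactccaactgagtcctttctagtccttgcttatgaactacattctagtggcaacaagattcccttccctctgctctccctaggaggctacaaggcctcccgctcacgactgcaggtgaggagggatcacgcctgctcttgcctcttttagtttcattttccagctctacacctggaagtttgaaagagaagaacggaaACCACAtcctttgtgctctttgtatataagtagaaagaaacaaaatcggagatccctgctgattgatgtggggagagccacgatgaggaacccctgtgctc
Nkg7: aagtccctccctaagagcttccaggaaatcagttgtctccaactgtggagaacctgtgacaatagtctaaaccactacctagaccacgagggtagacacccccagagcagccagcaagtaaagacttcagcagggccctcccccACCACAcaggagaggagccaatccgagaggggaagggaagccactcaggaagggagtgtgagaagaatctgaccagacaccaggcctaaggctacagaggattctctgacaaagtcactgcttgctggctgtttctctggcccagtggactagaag
Prf1: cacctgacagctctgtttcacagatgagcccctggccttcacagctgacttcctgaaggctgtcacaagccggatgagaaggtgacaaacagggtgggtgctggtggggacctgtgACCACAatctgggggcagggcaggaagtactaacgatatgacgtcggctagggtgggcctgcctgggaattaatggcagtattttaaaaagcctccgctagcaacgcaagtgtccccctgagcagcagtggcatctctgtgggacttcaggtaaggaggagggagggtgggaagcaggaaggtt
Gzmk: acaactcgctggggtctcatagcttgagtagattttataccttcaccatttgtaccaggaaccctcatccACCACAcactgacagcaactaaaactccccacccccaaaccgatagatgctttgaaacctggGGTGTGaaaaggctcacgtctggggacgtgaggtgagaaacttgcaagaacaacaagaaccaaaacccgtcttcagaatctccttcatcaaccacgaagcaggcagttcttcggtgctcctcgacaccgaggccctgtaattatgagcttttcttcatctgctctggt
The windows of Gzma, Nkg7 and Prf1 each held 1 RUNX site, as its reverse complement, with its first base at -51, -106 and -134 from the start site. That of Gzmk held 1 RUNX site at -180 and 1 T-box core at -118. RUNX sites were also found in the windows of Gzmb, with 3, and of Klrk1 and Eomes, with 1 each, so that 7 of the 8 windows held one, beside 17.3% of the 33469 windows of all genes. The T-box core was found in 2 of the 8, Gzmk and Klrb1, and in 17.9% of all windows. The full T-box site was in none of the 8 and in 1.10% of all windows. A match of letters is a description and does not show binding.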

How the data were processed

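For each array the authors deposited linear, normalized intensity values, 1 for every probe set. MAS5 is named in the submitters' processing notes and the Transcriptome Analysis Console in the methods. Software versions, build and annotation were not given in the sources used here. Sorted log2 values of the arrays differed by at most 0.20, with medians of 180.9 and 181.6. Precision is limited by the number of arrays.

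Of 24834 probe sets, 15049 carried 1 gene symbol in the annotation of the platform, 0 carried several, 8139 transcript probe sets had none and 1646 were controls. Values were log2-transformed without a pseudocount. For the 10 genes with several probe sets the mean was taken. No detection flags were used, and the receptor-based background limit stands in for them. One of its 1155 genes, Olr1, is an oxidized lipoprotein receptor, and without it the limits were 63.8 and 71.4. With 1 array per condition, no test was made, and a gene counted as different at 2-fold. The members and the 18 gene lists were chosen with earlier results of these data known. Within each list of cytotoxic, NK, T and white blood cell genes, those at least 2-fold different and up to 4 with the largest difference and an array above the limit were named, and the others were picked for their role after their values had been seen. Gene order, symbols and start site windows came from RefSeq (GRCr8). Fasl was matched as Faslg through its gene ID. The alternatives were other scalings (array medians, quantile, loess with span 0.3), floors at the background limit and at the 25th percentile, the highest probe set, a 1.5-fold threshold, a level filter, and limits at percentiles 90 and 99. The brightest GC-matched background probe set as a limit and the white blood cell median as a reference were added after seeing the data. The steps were tested on simulated data. Python 3.11.15, numpy 2.4.6, pandas 2.3.3, statsmodels 0.14.6 and matplotlib 3.10.9 were used.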

Additional observations from a re-analysis of the deposited data

How the results depend on the processing

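Of 63 values of the 9 measured genes under 7 alternatives each, 60 kept their direction and their side of the 2-fold threshold. Part of this was fixed in advance. Each gene has 1 probe set, so taking the highest probe set could change no value. The floors could not change the 8 genes above the background limit on both arrays. The sorted log2 values of the arrays already differed by at most 0.20, so array medians and quantile normalization had little room to move a gene. The log2 fold change of Ncr1 turned to -0.0028 with quantile normalization, so it has no settled direction. That of Klrb1 was 0 with values raised to the higher background limit, because both of its values lie under it. That of Prf1 was -0.92, short of 2-fold, relative to the median of the genes of all white blood cells. The log2 fold change of Gzma ranged from -1.61 to -1.40 and that of Nkg7 from -1.52 to -1.31. With a 1.5-fold threshold, 6 of the 9 genes were lower in place of 3, and the count was 3 under the scalings, the floors and the level filter. The median over the 9 genes ranged from -0.85 to -0.76. At the brightest GC-matched background probe set as the limit, 7 genes lay above it on both arrays in place of 8, as Gzmb fell short in the cocaine sample. No paired analysis was possible because each condition had 1 array.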

Other observations

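Among the 34 genes at least 2-fold lower in the cocaine sample with a mean level at or above the mean background limit, some outside the lists are known from lymphocytes. These were chosen on their values. Cd7, a surface protein of T and NK cells, had an intensity of 433.9 in the cocaine sample and 917.6 in the control sample, a log2 fold change of -1.08. Gpr18, a lipid receptor of lymphocytes, had 111.2 and 230.5, or -1.05. Matk, a kinase of blood cells and brain, had 59.6 and 139.3, or -1.22, its cocaine value under the background limit. Gzma, Nkg7, Prf1 and Il2rb are also among the 34. So are genes not particular to T and NK cells, with larger falls than Cd7, Gpr18 and Matk. Among these are the MHC genes RT1-N2, RT1-DOa and RT1-Ba, with -1.55, -1.44 and -1.31. Dlk1, Prodh and Bmp3 are others, with -1.38, -1.26 and -1.24. The largest falls of the 34 were those of Zbtb16, Fam111a and Frzb, with -2.36, -2.24 and -1.65. No test of these genes was made.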
